A study of Mus musculus with 12 samples.

Results

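Cells that make steroid hormones obtain cholesterol by synthesis, by uptake from lipoproteins and by release from stored esters. The genes of these routes were examined in mouse granulosa cells, the follicle cells that turn to progesterone production after the ovulatory hormone surge. The set is a list of 33 genes: enzymes from the mevalonate steps to cholesterol, the regulators of the SREBP transcription factors, and proteins of cholesterol uptake, transport, storage and export. By symbol, 31 of the 33 matched a probe set that names 1 gene. They are 31 of the 18193 genes so named, and all 31 were among the 12500 genes tested. They comprise 18 synthesis enzymes, 5 regulators and 8 genes of uptake, export and storage. Acat2, an acetyl-CoA thiolase of the first mevalonate step, and Soat1, which esterifies cholesterol for storage, were not matched, and their expression was not analysed here.

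The study asked how granulosa cells that lack Inha, the inhibin alpha subunit, differ from wild-type cells and how each genotype responds to an ovulatory stimulus. Cells came from antral follicles of 21-day-old mice of the strain label C57BL/6J;129S5/SvEvBrd, and 4 groups of 3 arrays were hybridised. Wild-type and Inha-/- mice each gave a group at 44 to 46 h after 5 IU PMSG, a gonadotropin that grows follicles, and a group that then had 6 h of 5 IU hCG, which acts on the luteinizing hormone receptor. PMSG was thus given to every group, and no untreated cells were compared. The labels call the samples independent but do not say how many mice gave each, and Inha is absent in all cells of the knockout, not in granulosa cells alone. The p-values measure the spread between these samples.

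Synthesis begins with Hmgcs1 and the mevalonate steps, passes through squalene to lanosterol, which Lss forms, and ends at cholesterol through enzymes such as Cyp51, Sc5d and Dhcr7. When membrane sterol is low, Scap carries SREBP proteins from the endoplasmic reticulum to be cut and to enter the nucleus, where SREBP-2 in particular turns on these enzymes, whereas Insig proteins hold the complex back when sterol is high. Rodent granulosa and luteal cells also take up cholesterol esters from high-density lipoprotein through Scarb1, and oxysterols such as the product of Ch25h bind Insig and the LXR receptors that induce Abca1 and Abcg1.

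Each value below is a log2 signal relative to the median of that probe set over the 12 arrays, so values of different genes cannot be ranked as levels, and the absence of a marker cannot be seen. Inha lay between 5.40 and 5.87 on the 6 wild-type arrays and between -7.40 and -5.40 on the 6 knockout arrays. Replicates correlated across genes at 0.519 to 0.752 in wild type after PMSG, 0.198 to 0.358 in Inha-/- after PMSG, 0.687 to 0.828 in wild type after hCG and 0.393 to 0.734 in Inha-/- after hCG. The labels carry an array number that splits the arrays into 7 with low and 5 with high numbers, and the hybridization control probe sets lay between -1.04 and -0.0453 on the former and between 0.758 and 1.19 on the latter. The high numbers are replicate 3 of Inha-/- after PMSG and replicates 2 and 3 of both hCG groups. Oocyte and theca markers differed with genotype. The median of 7 oocyte markers lay between -2.39 and -0.675 on wild-type arrays and between 0.675 and 3.12 on knockout arrays, and that of 7 theca and stroma markers between -1.14 and -0.42 against 0.568 to 2.49. Within the latter list Acta2, Col1a1, Col1a2 and Myh11 were higher in the knockout before and after hCG, whereas Cyp17a1, the steroidogenic enzyme of theca cells, was lower before hCG (-2.94, adjusted p = 0.0176) and at -1.36 after it (adjusted p = 0.148). The median of 6 granulosa markers lay at 0.578 to 0.695 in wild type and 0.115 to 0.392 in Inha-/- after PMSG. After hCG it lay at -1.67 to -0.522 and -0.549 to -0.0192. After hCG 5 of the 6 fell past the threshold in wild type (12.2% of tested genes) and 0 in the knockout. Inhbb was higher in the knockout after hCG (3.53, adjusted p = 0.00667). The part of the oocyte, theca and granulosa markers in the differences below was not tested, and in such samples fewer cells of a type and less RNA per cell cannot be told apart.

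Promoter sequence was available for 26 of the 33 genes, from RefSeq on build GRCm38.p6, and the 250 bases before the transcription start were searched on both strands. The 26 included Soat1 and Acat2, neither matched to a probe set, with Acat2 counted among the synthesis promoters. Shown are the 4 synthesis genes with the largest rises after hCG in wild type, and Ch25h, which rose most after hCG in the knockout. Capitals mark a sterol regulatory element (TCACNCCAC), an NF-Y box (CCAAT, or ATTGG where it lies on the other strand) and a cAMP response element (TGACGTCA). Hmgcs1 lies at chr13:119690101-119690350 on the plus strand, Cyp51 at chr5:4104698-4104947 on the minus strand, Lss at chr10:76531355-76531604 on the plus strand, Idi1 at chr13:8885356-8885605 on the plus strand and Ch25h at chr19:34475149-34475398 on the minus strand.
Hmgcs1: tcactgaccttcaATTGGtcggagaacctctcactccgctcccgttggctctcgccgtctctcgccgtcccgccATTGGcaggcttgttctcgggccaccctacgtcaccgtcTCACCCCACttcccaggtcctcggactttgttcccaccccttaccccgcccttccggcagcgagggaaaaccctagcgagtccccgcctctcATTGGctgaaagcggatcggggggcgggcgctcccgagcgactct
Cyp51: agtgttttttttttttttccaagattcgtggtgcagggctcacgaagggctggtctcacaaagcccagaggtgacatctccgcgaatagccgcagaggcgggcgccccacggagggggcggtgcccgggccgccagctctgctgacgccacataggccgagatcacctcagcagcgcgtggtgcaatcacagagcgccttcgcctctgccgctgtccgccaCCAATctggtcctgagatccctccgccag
Lss: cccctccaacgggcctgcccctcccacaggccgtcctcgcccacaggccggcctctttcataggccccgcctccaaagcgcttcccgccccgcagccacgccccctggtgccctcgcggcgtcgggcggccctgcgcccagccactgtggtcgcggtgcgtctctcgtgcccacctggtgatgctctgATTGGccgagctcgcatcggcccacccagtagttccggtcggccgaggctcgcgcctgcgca
Idi1: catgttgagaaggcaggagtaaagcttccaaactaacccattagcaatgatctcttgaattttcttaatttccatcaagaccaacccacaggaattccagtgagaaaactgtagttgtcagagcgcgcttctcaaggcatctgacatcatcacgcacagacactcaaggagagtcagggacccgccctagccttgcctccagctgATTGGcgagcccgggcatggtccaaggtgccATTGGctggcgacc
Ch25h: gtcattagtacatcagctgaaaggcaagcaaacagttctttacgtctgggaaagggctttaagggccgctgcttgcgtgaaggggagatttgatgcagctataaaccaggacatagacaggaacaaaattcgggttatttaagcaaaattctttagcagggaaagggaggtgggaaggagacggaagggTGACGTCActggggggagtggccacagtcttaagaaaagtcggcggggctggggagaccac
The letters TCACNCCAC of the sterol regulatory element were found in Hmgcs1 alone of the 26, against 1.31% of the 10084 tested genes with a promoter in the table. An NF-Y box was in 21 of the 26 (80.8%) and in 15 of 16 synthesis promoters, against 40.5% of tested genes. The cAMP response element was in Ch25h alone of the 26, against 2.84%. A GC box (GGGCGG) was in 22 of 26 (84.6%) against 62.7%, and an E-box (CACGTG) in 7 of 26 (26.9%) against 9.85%. Motifs were counted one by one and may overlap. These are matches of letters in a short window and say nothing of binding. Only the letters given were searched, so a promoter without a match may still hold another form of an element.

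In wild-type cells hCG was followed by higher signal of much of the synthesis pathway. Of the 31 genes, 9 rose and 0 fell at an adjusted p under 0.05 in limma with Benjamini-Hochberg adjustment over the 12500 genes, where 9.87% of all tested genes rose and 12.2% fell. At an unadjusted p under 0.05, 12 rose and 0 fell. Here and below, the share of all tested genes at this unadjusted threshold is not given, nor is the share whose groups do not overlap. Such counts and separations of arrays are therefore descriptions only. The 9 were 8 of the 18 synthesis enzymes and Scarb1. The log2 change was positive for 17 of 18 synthesis genes, with a median of 0.88, beside a median of 0.00416 over all 18193 genes. Over the 12500 tested genes the median was -0.0629 and 45.0% were positive.

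Among the mevalonate enzymes the rises were in Hmgcs1 and Idi1. Hmgcs1, which makes HMG-CoA, stood at -1.02, -0.21 and 0.14 after PMSG and at 2.14, 1.96 and 2.43 after hCG. All 3 hCG arrays were far above all 3 PMSG arrays, a log2 change of 2.54 ± 0.32 (SE) or 5.83-fold (adjusted p = 0.000283). Idi1, which isomerises isopentenyl diphosphate, went from -1.27, -0.02 and -0.39 to 1.15, 0.82 and 1.32, again without overlap, a 3.16-fold rise (adjusted p = 0.00561). The other 5 did not pass. Mvd, which forms isopentenyl diphosphate, changed by 1.01 (adjusted p = 0.0504) and Ggps1, which makes geranylgeranyl diphosphate, by 0.82, both with groups that did not overlap. Pmvk and Mvk, the kinases between mevalonate and Mvd, changed by 0.23 and 0.032, and Fdps, the farnesyl diphosphate synthase, by 0.10.

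From squalene on, 6 of 11 enzymes rose. Cyp51, the lanosterol demethylase, was at -2.08, -1.23 and -1.36 after PMSG and at 0.44, 0.28 and 0.62 after hCG, 4.0-fold higher (adjusted p = 0.000146). Lss, which cyclises squalene epoxide to lanosterol, moved from -0.13, -0.19 and -0.65 to 1.30, 1.09 and 1.72, 3.23-fold (adjusted p = 0.00447). Neither gene had overlapping groups. Dhcr7, the last reductase of one branch to cholesterol, was at -1.07, -0.69 and -0.46 and then at 0.84, 0.17 and 0.97, 2.64-fold higher (adjusted p = 0.00533). Msmo1, a sterol methyl oxidase, was at -1.16, -0.31 and 0.46 and then at 0.37, 1.35 and 1.46. Its groups overlapped, since replicate 3 after PMSG lay above replicate 1 after hCG, at a change of 1.40 ± 0.42 (adjusted p = 0.0348). Sqle, the squalene epoxidase, rose 2.05-fold and Sc5d, a sterol desaturase, 1.91-fold (adjusted p = 0.00715 and 0.0124). Below the threshold, Nsdhl changed by 0.67, with groups apart. Fdft1, the squalene synthase, changed by 0.22, Hsd17b7 by 0.22, Ebp by 0.14 and Tm7sf2, a sterol reductase, by -0.70.

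Some of these calls rested on few arrays. Wild type after PMSG holds no high-numbered array, so the within-part value compares 3 PMSG arrays with 1 hCG array, and there the 9 changes ran from 0.71 in Msmo1 to 2.51 in Hmgcs1, all positive. With the number class as a covariate, Msmo1 (1.22, adjusted p = 0.123) and Scarb1 (0.87, adjusted p = 0.0516) no longer passed. Quantile normalization also ended both calls (1.17, adjusted p = 0.0845, and 0.90, adjusted p = 0.057), the Msmo1 call was lost without the SD filter (adjusted p = 0.0681) and with only the wild-type groups in the fit (adjusted p = 0.0879), and that of Sc5d with the mean of its probe sets (0.45, adjusted p = 0.124). Leaving out replicate 3 of wild type after hCG took Sc5d to 0.81 (adjusted p = 0.060) and Scarb1 to 1.0 (adjusted p = 0.0558). The Msmo1 call was lost without replicate 1 or 2 after PMSG or without replicate 2 or 3 after hCG, at 0.99 to 1.41. The calls of Hmgcs1, Idi1, Sqle, Lss, Cyp51 and Dhcr7 held without each of the 12 arrays in turn, though only Cyp51 and Dhcr7 passed on the low-numbered arrays alone. The other probe sets of a gene mostly rose by less: all 4 of Hmgcs1 changed by 1.08 to 1.43 and both of Cyp51 by 1.04 to 2.01, whereas of the 2 of Sc5d one changed by -0.18.

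**Figure D1:**
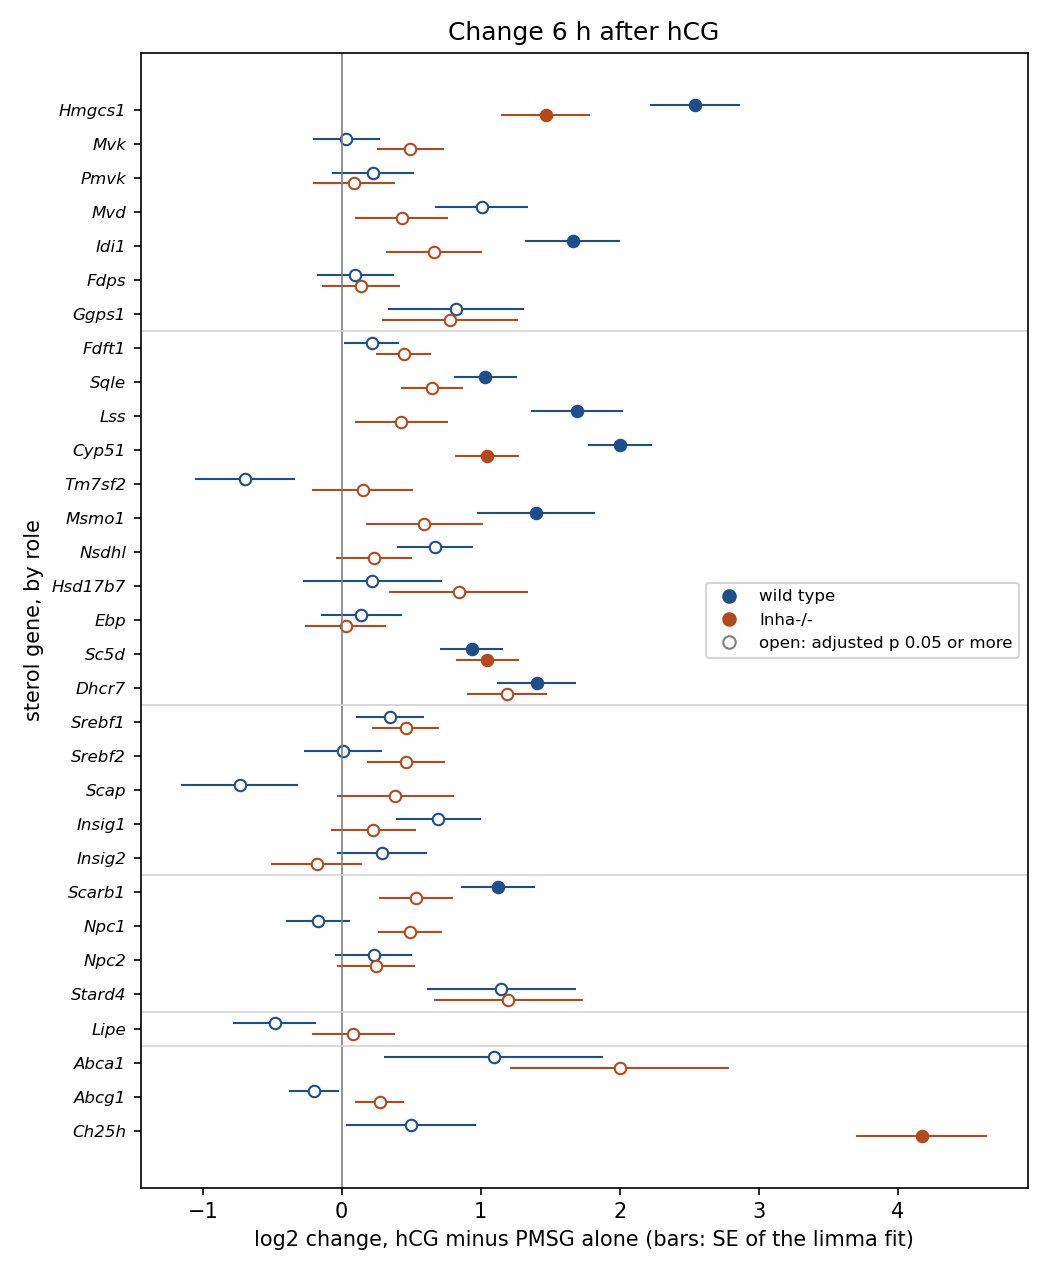
Log2 change after hCG in wild type and in Inha-/- cells for each of the 31 genes, with error bars of the SE of the limma fit and filled points for genes called at an adjusted p under 0.05. Most points lie right of 0 in both genotypes, and Hmgcs1 (2.54 in wild type) and Ch25h (4.17 in Inha-/-) lie farthest out.

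In wild-type cells the SREBP regulators gave 0 of 5 calls in limma, and 1 of 5 at an unadjusted p under 0.05. Insig1, which retains Scap and is itself an SREBP target, changed by 0.69 with groups apart (adjusted p = 0.131). Srebf1 changed by 0.35, Insig2 by 0.29, Srebf2, which encodes SREBP-2, by 0.012 and Scap by -0.73. The other probe set of Scap changed by -1.17. Scap passed as a fall with the mean of its probe sets and with array weights. Of the 8 genes of uptake, export and storage, Scarb1 rose. It stood at -0.56, -0.04 and 0.23 after PMSG and at 0.91, 0.84 and 1.24 after hCG, without overlap and 2.18-fold higher (adjusted p = 0.0113). Stard4, a cytosolic sterol carrier, changed by 1.15 ± 0.54 and Abca1, the cholesterol exporter, by 1.09 ± 0.79, with groups apart but adjusted p of 0.155 and 0.368. Abca1 did pass without replicate 3 of Inha-/- after PMSG, an array outside this comparison. Its other probe sets changed by 1.21 and 1.39. With only the wild-type groups in the fit Abca1 passed, as did Insig1, Ch25h and Mvd. Ch25h changed by 0.50 and Npc2 by 0.23, also with groups apart, and neither passed in the main fit. Npc1 changed by -0.17, Abcg1 by -0.20 and Lipe, the hormone-sensitive lipase, by -0.48.

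In Inha-/- cells hCG was also followed by higher synthesis values, with fewer calls. Of the 31 genes 4 rose and 0 fell, where 2.45% of tested genes rose and 0.224% fell. They were Ch25h, Hmgcs1, Cyp51 and Sc5d, and at an unadjusted p under 0.05 in limma 9 rose and 0 fell. All 18 synthesis genes had a positive change, with a median of 0.54, beside -0.0384 over all genes. Over the tested genes the median was -0.0286 and 46.3% were positive. Hmgcs1 went from -1.70, -0.78 and -1.54 to 0.38, 0.06 and -0.06, 2.77-fold (adjusted p = 0.0336). Cyp51 went from -0.28, -0.55 and -0.48 to 0.46, 0.76 and 0.62, 2.07-fold (adjusted p = 0.0348), and Sc5d from -0.95, -0.93 and -0.58 to 0.14, 0.31 and 0.24, also 2.07-fold (adjusted p = 0.0312). In these 3 genes every hCG array exceeded every PMSG array. The other probe sets changed by less or about as much: the 4 of Hmgcs1 by 0.36 to 0.55, the 2 of Cyp51 by 0.55 to 1.08 and the 2 of Sc5d by 0.28 to 0.89. Dhcr7 missed the threshold at 1.19 (adjusted p = 0.0552). Like Dhcr7, Sqle (0.65) and Fdft1 (0.45) had groups that did not overlap but did not pass. The remaining 12 synthesis genes changed by 0.028 to 0.84.

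The 3 synthesis calls in the knockout lay close to the threshold. Hmgcs1 lost its call when any 1 of 7 arrays was left out (1.29 to 1.56), Cyp51 with any 1 of 8 (0.97 to 1.13) and Sc5d with any 1 of 6 (0.98 to 1.09). These included each of the 3 arrays of Inha-/- after hCG for all 3 genes. The other arrays were replicates 1 and 3 of Inha-/- after PMSG for Hmgcs1, all 3 for Cyp51 and replicates 1 and 2 for Sc5d. Beyond the knockout they were replicate 2 of wild type after PMSG for Hmgcs1 and Sc5d, replicate 3 of it for Cyp51, and replicate 1 of wild type after hCG for Hmgcs1 and Cyp51. On low-numbered arrays alone the changes were 1.62, 0.88 and 1.08 for Hmgcs1, Cyp51 and Sc5d, and on high-numbered arrays alone 1.54, 1.16 and 0.85, none past the threshold. With the number class as a covariate Cyp51 (1.03, adjusted p = 0.0584) and Sc5d (1.02, adjusted p = 0.053) were not called. Cyp51 was also lost with the second array number of the labels as a random block (adjusted p = 0.0599), and Sc5d with the mean of its probe sets (0.74, adjusted p = 0.0868). Hmgcs1 was lost with the mean of its probe sets (0.66, adjusted p = 0.274), with array weights (1.17, adjusted p = 0.0843) and without the SD filter (adjusted p = 0.0697). With only the knockout groups in the fit none of the 3 passed (adjusted p of 0.0948, 0.0622 and 0.0683).

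Regulators again gave 0 of 5 calls by limma in the knockout, and 0 at an unadjusted p under 0.05, at changes of -0.18 in Insig2 to 0.46 in Srebf1 and Srebf2. In uptake, export and storage the values were positive for all 8 (46.3% of tested genes), with a median of 0.51, but Ch25h alone passed. Abca1 changed by 2.00 ± 0.79 (adjusted p = 0.318). Its PMSG arrays lay at -0.70, -0.25 and -4.06, with replicate 3 far below the other two. Stard4 changed by 1.20, Scarb1 by 0.54 and Npc1 by 0.49, none past the threshold.

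**Figure D2:**
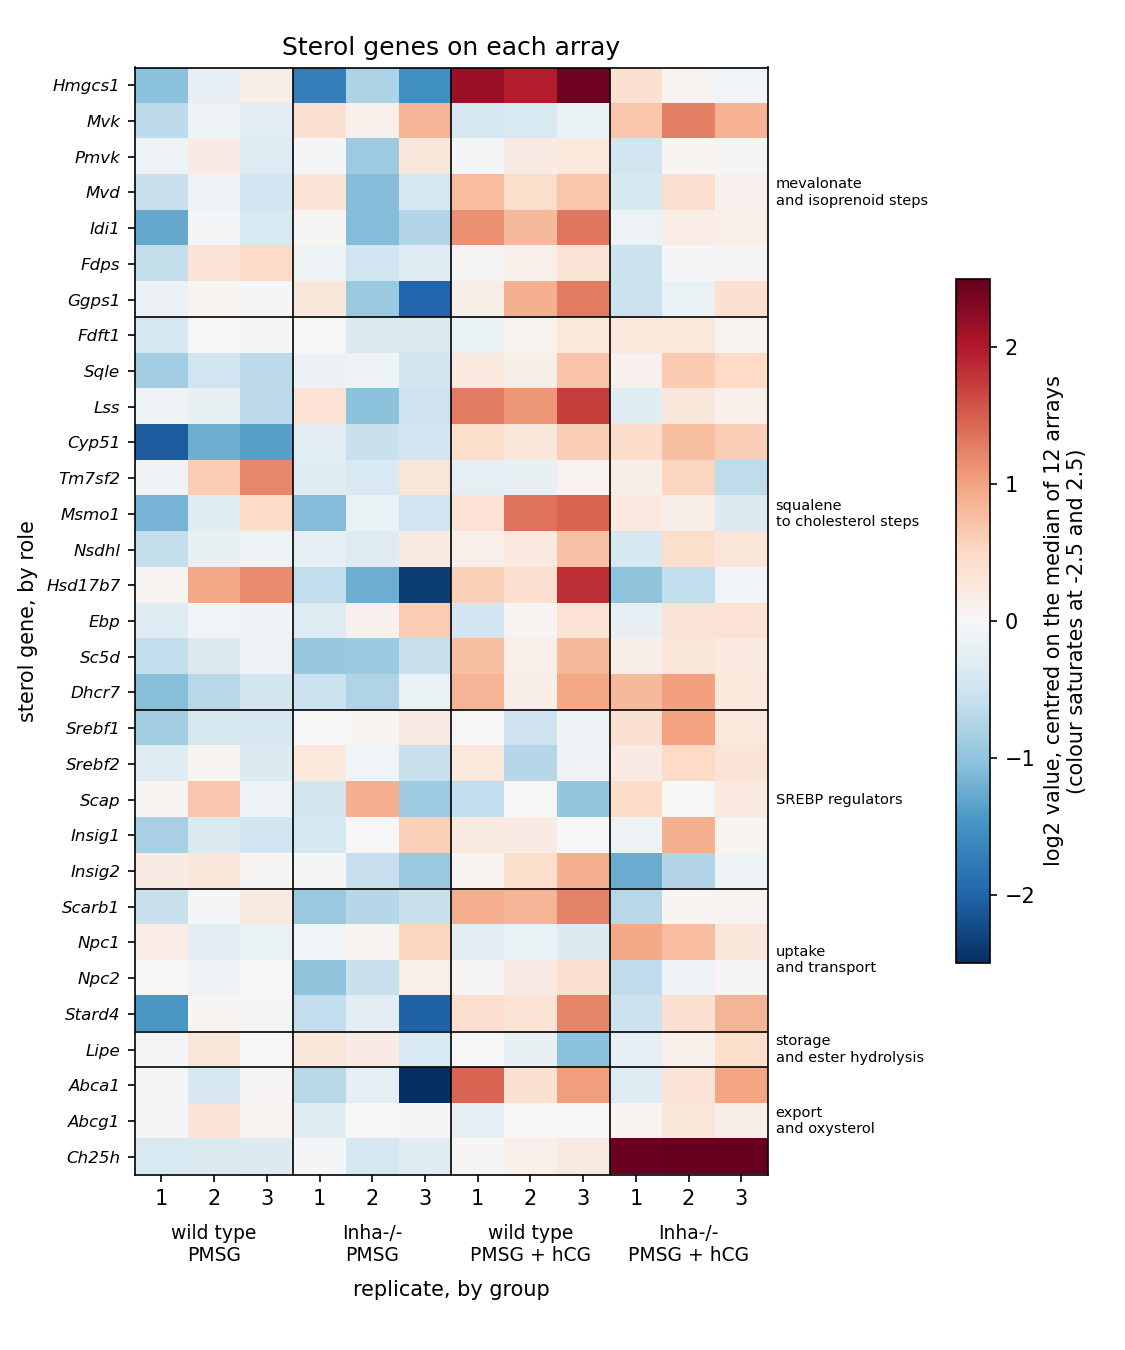
Value of each of the 31 genes on each of the 12 arrays, as log2 signal relative to the median of the probe set, with genes ordered by role and arrays by group; colours saturate at -2.5 and 2.5. The wild-type hCG arrays hold the highest Hmgcs1 values (1.96 to 2.43), and the Inha-/- hCG arrays the highest Ch25h values (2.45 to 4.89).

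Ch25h, the enzyme that hydroxylates cholesterol to an oxysterol, was the single gene of the 31 whose hCG response differed between genotypes by the interaction test, where 0.584% of tested genes had a higher and 1.5% a lower response in the knockout. It lay at -0.38, -0.37 and -0.35 in wild type after PMSG, at -0.03, -0.43 and -0.30 in Inha-/- after PMSG and at 0.03, 0.12 and 0.23 in wild type after hCG. In Inha-/- after hCG it lay at 2.45, 4.41 and 4.89. All 9 other arrays lay between -0.43 and 0.23, and these 3 stood above them. In wild type every hCG array also lay above every PMSG array, at a change of 0.50 (adjusted p = 0.513 in the main fit). That smaller change did pass with only the wild-type groups in the fit. The rise in the knockout was 4.17 ± 0.47 or 18.0-fold (adjusted p = 0.000332), and the interaction was 3.67 ± 0.67 with a 95% confidence interval of 2.21 to 5.14 (adjusted p = 0.0156). The call held when each array was left out in turn (3.19 to 4.41), but on low-numbered arrays alone, where 1 array stands for each hCG group, the value was 2.28 (adjusted p = 0.0737). Within the knockout the rise was 2.68 on low-numbered and 4.95 on high-numbered arrays. Ch25h has 1 probe set. The gene is also expressed by macrophages, and the median of 9 macrophage and leukocyte markers was 0.032, 0.80 and 0.82 on the 3 Inha-/- hCG arrays and between -0.46 and 0.43 on the other 9. Of the 9 markers, 8 varied enough to be tested, and limma called 0 of them in any of the 5 comparisons. At an unadjusted p under 0.05, 3 of the 8 were higher in the knockout after hCG and 1 rose after hCG in the knockout. Before hCG, at the same threshold, 1 was higher in the knockout (C1qb, 1.08) and 0 were lower, where Ch25h differed by 0.12. The part of these markers in the Ch25h value was not tested.

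For the synthesis enzymes the difference in response between genotypes did not pass the limma test in any of the 18, and 3 had a lower and 0 a higher response in the knockout at an unadjusted p under 0.05. Genes picked because they passed in wild type tend to show smaller values in the other genotype through that choice alone, so their values are given only as a description. The interaction was -1.26 for Lss (95% confidence interval -2.29 to -0.23, adjusted p = 0.229), -1.07 for Hmgcs1 (-2.07 to -0.077, adjusted p = 0.295), -1.0 for Idi1 (-2.06 to 0.064, adjusted p = 0.374) and -0.95 for Cyp51 (-1.67 to -0.24, adjusted p = 0.189). Sc5d and Dhcr7 were near equal in both, at 0.11 and -0.21. For Scarb1 the value was -0.59 (-1.41 to 0.24, adjusted p = 0.536). Across the 18, whose values share arrays, the wild-type and knockout responses had a Pearson r of 0.715 and a Spearman rho of 0.628, and across all 31 of 0.336 and 0.596. These correlations are descriptions, since genes are not independent replicates.

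**Figure D3:**
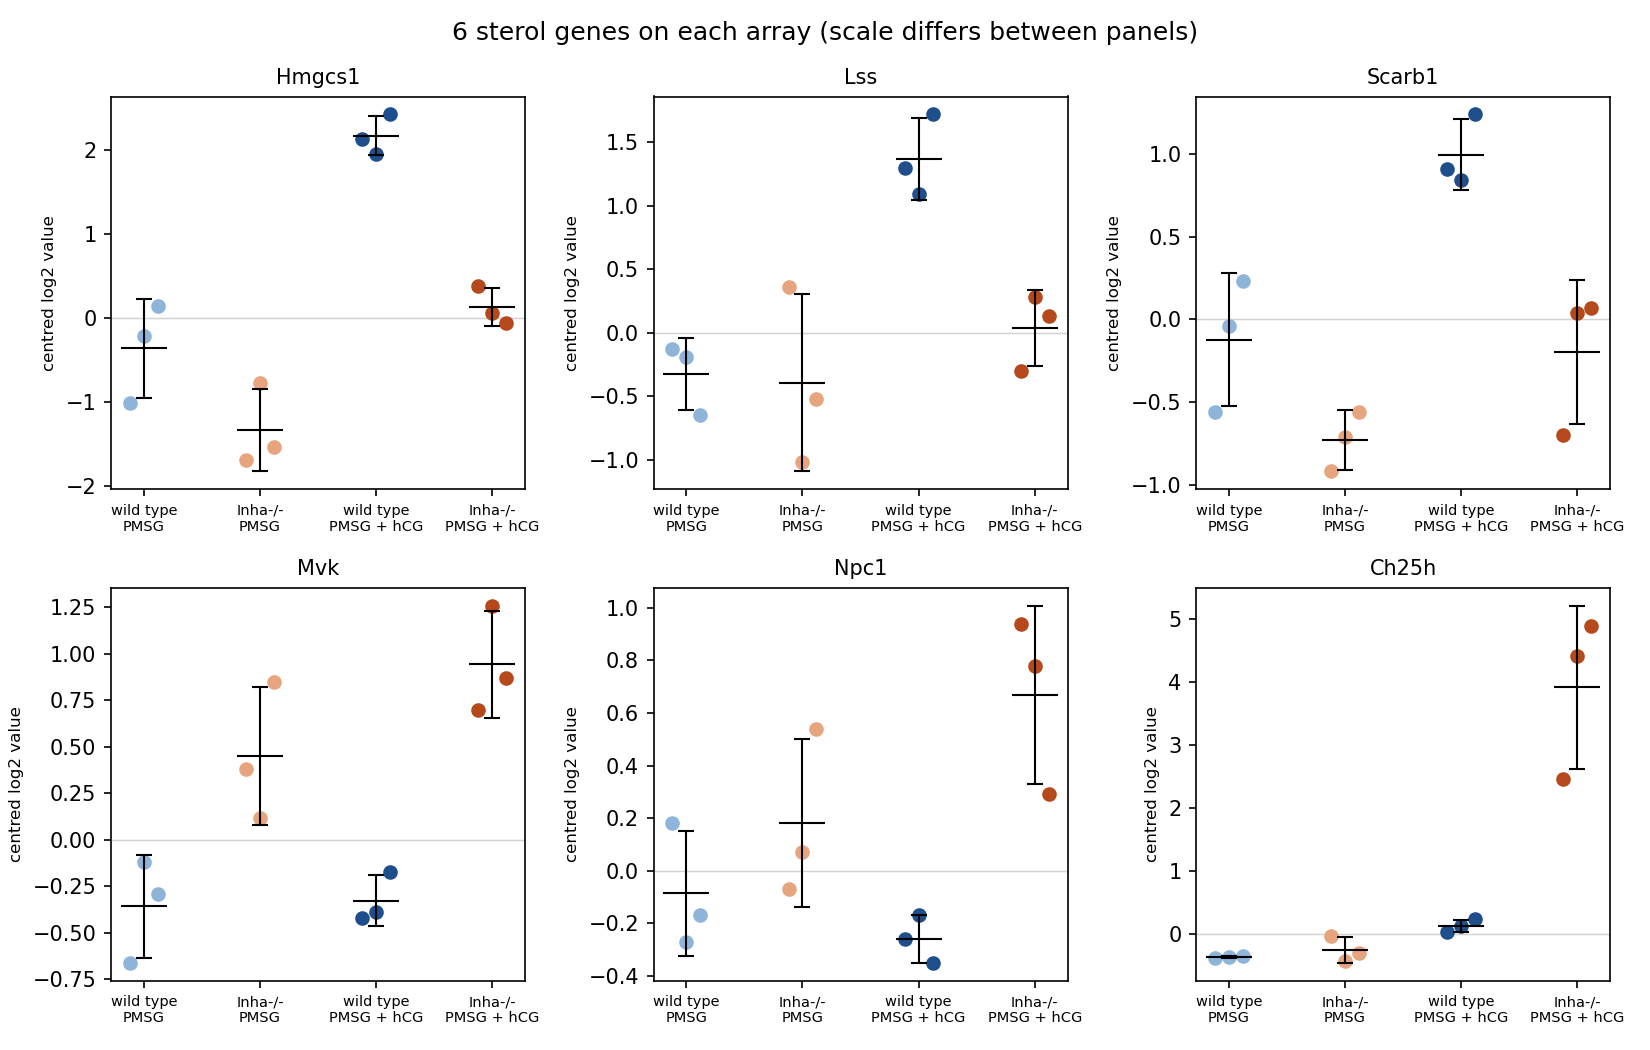
Values on each array, by group, of 6 genes called between genotypes after hCG, as log2 signal relative to the median of the probe set; each point is 1 array, with the mean and SD of 3. Hmgcs1 in wild type after hCG (1.96 to 2.43) lies above the other 3 groups, and Mvk is higher in both Inha-/- groups (0.12 to 1.26) than in both wild-type groups.

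After hCG the genotypes differed in 8 of the 31 genes, 4 higher and 4 lower in Inha-/- cells, where 12.5% of tested genes were higher and 8.83% lower. The lower genes were Hmgcs1, Lss, Scarb1 and Insig2. Hmgcs1 was at 2.14, 1.96 and 2.43 in wild type against 0.38, 0.06 and -0.06, 4.15-fold lower (adjusted p = 0.0011). Lss was at 1.30, 1.09 and 1.72 against -0.30, 0.28 and 0.13, 2.52-fold lower (adjusted p = 0.0147). No knockout array of either gene reached a wild-type one. Scarb1, the high-density lipoprotein receptor, was at 0.91, 0.84 and 1.24 against -0.70, 0.04 and 0.07, 2.29-fold lower (adjusted p = 0.00814). Insig2, a retention protein of Scap, was at 0.07, 0.43 and 0.89 against -1.25, -0.73 and -0.10, 2.23-fold lower (adjusted p = 0.0259). Both also had groups apart, although for Insig2 the nearest arrays were only narrowly so. Idi1 (-1.04, adjusted p = 0.0513), Hsd17b7 (-1.51, adjusted p = 0.0513) and Msmo1 (-1.05, adjusted p = 0.102) did not overlap between genotypes and did not pass. The same held, only narrowly apart, for Mvd (-0.59, adjusted p = 0.245) and Fdps (-0.35, adjusted p = 0.438).

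The genes higher in Inha-/- cells after hCG were Ch25h, Mvk, Npc1 and Srebf1. Ch25h was 13.8-fold higher (adjusted p = 0.000283). Mvk, the mevalonate kinase, was at -0.42, -0.39 and -0.17 in wild type and at 0.70, 1.26 and 0.87 in the knockout, 2.41-fold higher (adjusted p = 0.00339). It thus lay opposite to Hmgcs1 within the same early steps. Npc1, which moves cholesterol out of lysosomes, was at -0.26, -0.17 and -0.35 against 0.94, 0.78 and 0.29, 1.90-fold higher (adjusted p = 0.0148). Srebf1, which encodes SREBP-1, was at -0.01, -0.52 and -0.13 against 0.38, 1.01 and 0.26, 1.70-fold higher (adjusted p = 0.0429). Groups were apart for all 4. Scap changed by 0.76, Srebf2 by 0.52 and Lipe by 0.51, and Abcg1 by 0.25, none past the threshold. Of these, Scap and Abcg1 had groups apart, and Srebf2 and Lipe had groups that overlapped. The other probe set of Scap was at 1.23, and Scap passed as higher with the mean of its probe sets.

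Calls of Hmgcs1, Mvk, Scarb1 and Ch25h held without each array in turn. Lss lost its call without replicate 3 of wild type after hCG or replicate 1 of Inha-/- after hCG (-1.16 in each case), and after quantile normalization (-0.95, adjusted p = 0.0774). Npc1 lost it without that wild-type array or without replicate 1 or 2 of Inha-/- after hCG (0.79 to 0.88). Insig2 lost it without replicate 2 or 3 of wild type or 1 or 2 of Inha-/- after hCG (-1.18 to -0.88), and with only the hCG groups in the fit (adjusted p = 0.0648). Srebf1 lost it without any of those 4 arrays, without replicate 2 or 3 of wild type after PMSG or without replicate 2 of Inha-/- after PMSG (0.53 to 0.85). It was also lost with the second array number as a random block (0.75, adjusted p = 0.0684) and with only the hCG groups in the fit (adjusted p = 0.0872). On low-numbered and on high-numbered arrays alone, the values were -1.77 and -2.20 for Hmgcs1, 1.12 and 1.34 for Mvk, and -1.60 and -1.20 for Lss. They were -1.61 and -0.99 for Scarb1, -1.32 and -1.08 for Insig2, 1.20 and 0.79 for Npc1, 0.38 and 0.96 for Srebf1, and 2.42 and 4.47 for Ch25h. Of these, Ch25h passed on both sets of arrays and Hmgcs1 on the high-numbered ones. All 4 other probe sets of Hmgcs1 were lower in the knockout (-1.56 to -1.02), as were both of Scarb1 (-0.998 to -0.844) and both of Insig2 (-0.823 to -0.692), and the second of Mvk was higher by 0.97. Of the 2 others of Lss one was lower (-0.79) and one was at 0.073.

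**Figure D4:**
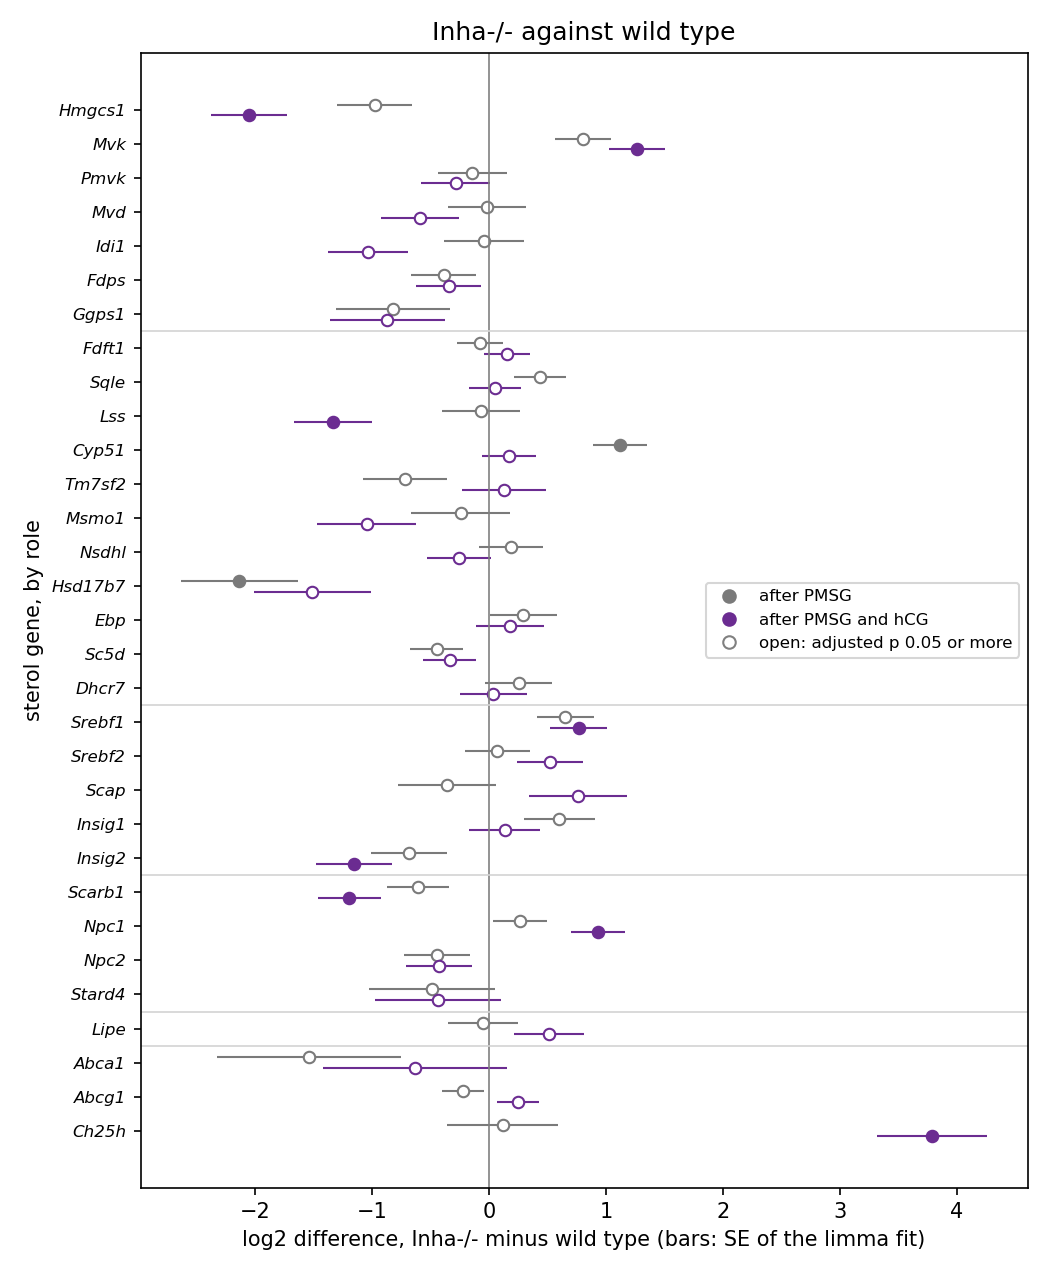
Log2 difference of Inha-/- against wild type after PMSG and after hCG for each of the 31 genes, with error bars of the SE of the limma fit and filled points for genes called at an adjusted p under 0.05. Cyp51 and Hsd17b7 are filled after PMSG, and 8 genes, from Hmgcs1 at -2.05 to Ch25h at 3.79, are filled after hCG.

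Before hCG the genotypes differed in 2 of the 31 genes, both synthesis enzymes, where 2.98% of tested genes were higher and 3.21% lower in Inha-/- cells. Cyp51 was at -2.08, -1.23 and -1.36 in wild type and at -0.28, -0.55 and -0.48 in the knockout, with no overlap and 2.18-fold higher (adjusted p = 0.0152). Hsd17b7, which acts in sterol demethylation and also on estrogens, was at 0.07, 0.94 and 1.18 against -0.62, -1.22 and -2.38, 4.39-fold lower (adjusted p = 0.0291). The Cyp51 call held without each array in turn (0.86 to 1.28), while that of Hsd17b7 was lost without replicate 2 or 3 of either PMSG group (-2.23 to -1.65) and without the SD filter (adjusted p = 0.0652). With the mean of all probe sets of a gene neither passed, at 0.66 for Cyp51 (adjusted p = 0.0674) and -1.36 for Hsd17b7 (adjusted p = 0.0551). Nor did either pass on low-numbered arrays alone (1.14 and -1.65) or with only the PMSG groups in the fit (adjusted p = 0.0848 and 0.0904). The 3 other probe sets of Hsd17b7 ran from -1.88 to 0.02, and those of Cyp51 from 0.16 to 0.69. After hCG Cyp51 was near equal in the genotypes (0.17, adjusted p = 0.686). Hmgcs1 (-0.98, adjusted p = 0.107) and Mvk (0.81, adjusted p = 0.0757) pointed the way they did after hCG without passing. Regulators gave 0 of 5 calls in limma, from -0.69 in Insig2 to 0.65 in Srebf1, and uptake, export and storage 0 of 8, from -1.54 in Abca1 to 0.27 in Npc1. At an unadjusted p under 0.05, 1 of the former was higher and 1 of the latter lower. Over the 31 genes, 25 had the same sign of genotype difference before and after hCG, with a Pearson r of 0.522 and a Spearman rho of 0.665 as descriptions. The share of all tested genes with the same sign is not given.

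As a class, the 18 synthesis genes gave array medians of -0.593, -0.109 and -0.125 in wild type after PMSG and 0.303, 0.229 and 0.722 after hCG. In Inha-/- cells the medians were -0.192, -0.658 and -0.448 after PMSG and -0.012, 0.296 and 0.131 after hCG. Within each genotype every hCG array exceeded every PMSG array. The group means were -0.28 ± 0.27 and 0.42 ± 0.27 in wild type and -0.43 ± 0.23 and 0.14 ± 0.15 in the knockout (SD, n = 3). In the 7 mevalonate genes alone the hCG groups were apart, at 0.14 to 0.69 in wild type and -0.41 to 0.10 in the knockout, while the 11 later genes overlapped at 0.17 to 0.73 against 0.14 to 0.33. Regulator medians after hCG lay at -0.09 to 0.07 in wild type and 0.20 to 0.50 in the knockout. Those of uptake, export and storage lay at 0.03 to 0.31 and -0.27 to 0.36.

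**Figure D5:**
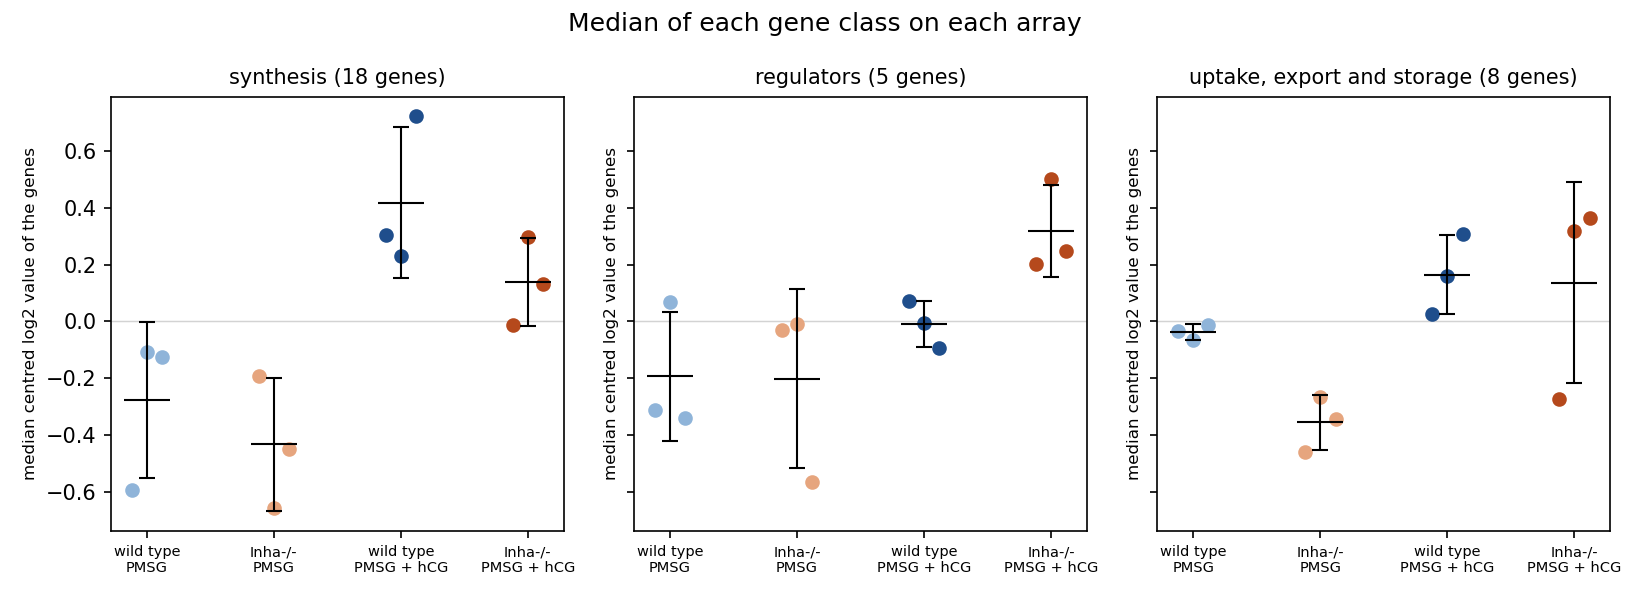
Median over the synthesis genes, the regulators and the genes of uptake, export and storage on each array, as log2 signal relative to the median of each probe set, by group; each point is 1 array, with the mean and SD of 3. The synthesis medians of wild type after hCG (0.229 to 0.722) lie above those after PMSG (-0.593 to -0.109).

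Genes beside the pathway were read from 5 further lists. Of 15 other genes of sterol handling, 14 varied enough to be tested. Of these, 5 rose and 2 fell after hCG in wild type, where 9.87% of all tested genes rose and 12.2% fell, and 2 rose in Inha-/- cells, where 2.45% rose. By the interaction test 2 had a lower response in the knockout, beside 1.5% of tested genes. The 2 that fell in wild type were Nceh1 (-3.23, adjusted p = 0.00584) and Lipa (-0.90, adjusted p = 0.03). The Nceh1 call held without each array in turn. That of Lipa was lost without any 1 of 5 arrays (-0.99 to -0.74) and with the mean of its probe sets (-0.51, adjusted p = 0.106). Stard5, a cytosolic sterol-binding protein, was at 0.05, 0.02 and 0.47 and then at 2.88, 2.61 and 3.63 in wild type, against -0.41, -0.02 and -0.45 and then -1.03, -0.20 and -0.36 in the knockout. It rose in wild type by 2.85 (adjusted p = 6.89e-05), and the knockout arrays stayed near or below 0, an interaction of -3.09 (adjusted p = 0.00323). Lrp8, a lipoprotein receptor, was at -1.06, -0.70 and -0.76 and then at 2.31, 1.62 and 2.48 in wild type, against -0.19, -0.46 and 0.15 and then -0.15, 0.90 and 0.59. Its rise in wild type was 2.98 (adjusted p = 5.97e-05) and its interaction -2.37 (adjusted p = 0.0166). Gramd1b, which carries cholesterol from the plasma membrane to the endoplasmic reticulum, rose in both genotypes, by 2.16 in wild type (adjusted p = 6.51e-05) and 1.65 in the knockout (adjusted p = 0.00152). Vldlr, another lipoprotein receptor, also rose in both. Its rise in wild type was 2.40 (adjusted p = 0.00132), and that call held without each array in turn. In the knockout it was 1.69 (adjusted p = 0.0382), a call lost when any 1 of 9 arrays was left out (1.52 to 1.80). These were the 6 knockout arrays, replicates 1 and 2 of wild type after PMSG and replicate 2 of wild type after hCG. After hCG, Stard5 (-3.57, adjusted p = 2.33e-05) and Lrp8 (-1.69, adjusted p = 0.0026) were lower in Inha-/- cells, and Lbr, a sterol reductase of the nuclear envelope, was higher (0.85, adjusted p = 0.00236), among 2 higher and 3 lower genes of this list (12.5% and 8.83% of tested genes). Before hCG 1 gene was higher and 2 were lower (2.98% and 3.21% of tested genes): Lbr was higher (0.68), and Osbpl8, an oxysterol-binding protein relative, and Plin2, a lipid droplet coat protein, were lower (-1.15 and -1.68). The Lbr and Osbpl8 calls were each lost without any 1 of 4 arrays of the PMSG groups (0.64 to 0.70 and -1.21 to -0.93), these being all 3 of wild type and replicate 2 of Inha-/- for Lbr, and replicates 1 and 3 of wild type and 2 and 3 of Inha-/- for Osbpl8. The Plin2 call was lost without any 1 of 9 arrays (-1.81 to -1.35), all except replicate 2 of Inha-/- after PMSG and replicates 1 and 2 of Inha-/- after hCG.

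For the lists that follow, 9.87% of all tested genes rose and 12.2% fell after hCG in wild type, and 2.45% rose in the knockout. Against wild type, 3.21% were lower in the knockout before hCG, and 12.5% were higher and 8.83% lower after it. Of 8 matched genes of SREBP and LXR control, Erlin1 was higher in Inha-/- cells after hCG (1.01, adjusted p = 0.0071). It takes part in the turnover of Insig proteins and of sterol enzymes. Mylip, an LXR target that marks lipoprotein receptors for breakdown, fell after hCG in wild type (-1.94, adjusted p = 0.0153), but not past the threshold without replicate 1 of wild type after hCG (-1.59). Of 9 SREBP-driven fatty acid genes, Scd1, a fatty acid desaturase, rose after hCG in wild type by 2.58 (adjusted p = 0.00134) and Acly, which supplies acetyl-CoA, by 1.39 (adjusted p = 0.0491). Only 3 of the 9 had a positive change there, beside 45.0% of tested genes. The median of the list was -0.55 and its range -1.34 to 2.58. The Acly call was lost without any 1 of 9 arrays (0.90 to 1.47), among them all 3 of wild type after PMSG, replicates 1 and 3 of wild type after hCG, all 3 of Inha-/- after hCG and replicate 2 of Inha-/- after PMSG. Scd1 was lower in Inha-/- cells after hCG (-2.43, adjusted p = 0.00165), and Elovl6, an elongase, was lower both before (-1.83, adjusted p = 9.94e-05) and after hCG. In the isoprenoid branch, 7 of 8 genes were matched, and Coq2, of ubiquinone synthesis, fell after hCG in wild type (-0.82, adjusted p = 0.0166; lost without replicate 1 or 2 of wild type after PMSG or 3 after hCG, at -0.78 to -0.72) and was higher in the knockout after hCG (1.12, adjusted p = 0.00323). Of 5 matched genes that use cholesterol for steroids, 4 were lower in Inha-/- cells before hCG, where 3.21% of tested genes were lower, among them Star, which brings cholesterol into mitochondria (-4.60), and Cyp11a1, which cleaves its side chain (-3.23). After hCG, Star (-2.95) and Cyp11a1 (-2.29) were also lower in the knockout past the threshold. Star rose after hCG by 7.04 in wild type and 8.68 in the knockout. Cyp11a1 rose in the knockout by 1.43, but not past the threshold without replicate 2 of either knockout group (1.23 to 1.27) or after quantile normalization (0.62). It also did not pass with the mean of its probe sets (0.37, adjusted p = 0.347) or with only the knockout groups in the fit (adjusted p = 0.0741). Fdx1, the electron donor of Cyp11a1, rose by 1.55 and 3.39, an interaction of 1.84 (adjusted p = 0.0307). That call was lost without any 1 of 9 arrays (1.76 to 1.92), which were all 6 of the knockout, replicate 2 of wild type after PMSG and replicates 1 and 3 of wild type after hCG.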

How the data were processed

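Affymetrix mouse arrays of 1 colour and 45101 probe sets were hybridised with granulosa cell RNA, 12 in all and 3 for each of 4 groups. The authors deposited log2 values made with GCRMA, per the submitters' processing notes, and of GCRMA the version is not given in the sources used here. Medians of probe sets across arrays are 0 within 5e-07, so values were centred, although the labels do not state it. The base is taken as log2 because values of 1 probe set span up to 13.3 units, more than the 11.1 possible for a 16-bit scanner in natural log units. The arrays had medians from -0.0197 to 0.093 and were not rescaled. Columns of other samples numbered 0. The number of arrays limits the precision.

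Probe sets were named from the platform annotation: of those that are not controls, 34945 name 1 gene, 932 several and 9160 none. Each gene was represented by its most variable single-gene probe set (SD over the arrays), and the 12500 genes with an SD of at least 0.151 (upper 60% of probe sets) were tested; such a choice favours probe sets that respond. Of the 31 matched genes, 10 have 1 probe set. A group-means model over the 12 arrays was fitted with limma 3.58.1 in R 4.3.3, with 2-sided p-values adjusted over all tested genes and called under 0.05. In comparisons of genotypes the wild type is subtracted. The scripts were tested on simulated data. Genes called in a comparison, up to 6 in each direction by size, are given on every array, and up to 3 called genes with the smallest adjusted p are named from each further list. Nceh1 and Lipa, the 2 genes of sterol handling that fell in wild type, are named as well. The genes and lists were chosen with earlier results of these data known. Alternatives were other filters, probe set choices and weights, quantile normalization, blocks for shared numbers, the array number class, and leaving out each array. The fit on high-numbered arrays alone was added after seeing the data.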

Additional observations from a re-analysis of the deposited data

Results flagged for a closer look

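In 4 of the genes named above the hCG response differed between genotypes by the interaction term of the limma fit, given as the response in Inha-/- cells minus that in wild type. The difference was 3.67 for Ch25h and 1.84 for Fdx1, and it was -3.09 for Stard5 and -2.37 for Lrp8. The Fdx1 difference did not pass after quantile normalization (1.34, adjusted p = 0.164) or when any 1 of 9 arrays was left out (1.76 to 1.92). Groups of 3 arrays are too small to test for a single array that stands apart.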

How the results depend on the processing

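The 24 calls of sterol genes gave 515 values under the alternatives, all 515 in the same direction as reported. For many of these the direction was fixed in advance. Dropping the SD filter, adding the replicate block, fitting only the groups compared or leaving out an array outside them cannot change the log2 difference. The agreement is thus not a test of the calls. Counts of called genes moved more, and not always over the same genes. Between genotypes after PMSG the count of 2 became 1 without the SD filter (Cyp51), 1 with the mean of all probe sets of a gene (Mvk, so 0 of the 2 were shared), 0 on low-numbered arrays alone and 0 with only the groups compared in the fit. After hCG the count of 8 became 1 on low-numbered arrays alone (Ch25h) and 2 on high-numbered arrays alone (Hmgcs1 and Ch25h). For the hCG response in wild type the count of 9 became 3 on low-numbered arrays alone, 2 of them shared (Cyp51 and Dhcr7) and the other Abca1. In Inha-/- cells the count of 4 became 2 with the number class as a covariate (Hmgcs1 and Ch25h), 1 on low-numbered arrays alone, 2 on high-numbered arrays alone (Ch25h and, not among the 4, Abca1) and 1 with only the groups compared. The interaction count of 1 became 0 on low-numbered arrays alone. These fits use fewer arrays or an added term, apart from the filter and the mean of probe sets, for which the cause was not tested. Other settings raised counts. Between genotypes after hCG the count of 8 became 12 with the mean of all probe sets of a gene, Scap among those added, and 11 with array weights. In wild type the count of 9 became 11 with that mean, 1 of them a fall (Scap). It became 13 with array weights, 2 of them falls (Scap and Lipe), and 12 with only the groups compared. Leaving out 1 array at a time gave 1 to 3, 4 to 10, 6 to 10, 1 to 5 and 1 to 1 calls in the same order of comparisons. A replicate block gave 2, 7, 10, 3 and 1 calls, without Srebf1 between genotypes after hCG (adjusted p = 0.0609) and Cyp51 after hCG in Inha-/- cells (adjusted p = 0.0535); the same replicate numbers were not taken as pairs, because correlations of same-numbered arrays lay between -0.134 and 0.299 over 12 pairs. Weak signal cannot be told from background on these centred values.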
